A study of Caenorhabditis elegans with 2 samples.

Results

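FKH-6-GFP ChIP-seq, which maps where a tagged protein lies on DNA, gave many called regions next to genes for small nucleolar RNAs (snoRNAs) and small nuclear RNAs (snRNAs) in Caenorhabditis elegans late embryos, and these regions are described here. A region was counted when it lay on a nuclear chromosome and its summit was within 500 bp of the annotated 5' end of a snoRNA or snRNA gene. Its summit also had to be more than 500 bp from the 5' end of every tRNA gene. Of the 26164 regions in the authors' pooled list, 26141 were nuclear and 274 met the rule, 213 nearest to a snoRNA gene and 61 nearest to a snRNA gene. A further 2 regions near these genes were left out because a tRNA gene started within 500 bp, and 1 of them was in the reproducible list. The rule used position and annotation only, so signal, rank and replicates are separate readouts, although the authors had already called every region. Sequence near the summit is not fully separate, since the rule picks DNA beside these genes. Shares of letters set against all regions therefore depend partly on the rule.

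Small nucleolar RNAs guide chemical modification of ribosomal RNA and other RNAs. Many are cut out of introns of host genes, and others are transcribed from promoters of their own. Small nuclear RNAs are core parts of the spliceosome, and in nematodes this gene class also holds the spliced leader RNAs SL1 and SL2, from the sls-1 and sls-2 genes, which are joined to the 5' ends of messenger RNAs. RNA polymerase III genes such as tRNA genes carry 2 short promoter elements, the A box and the B box, which the factor TFIIIC binds. Promoters of snRNA genes instead carry an element some distance upstream of the start. FKH-6 is a forkhead transcription factor needed for development of the somatic gonad.

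There was 1 group with 2 biological replicates. Both were whole hermaphrodite late embryos of strain OP78, genotype unc-119(ed3) III; wgIs78, taken 5.5 hours after worms were synchronized by bleaching. The line carries a stable transgene in which FKH-6 ends in a GFP-FLAG tag, and an antibody to GFP pulled down the sonicated chromatin. The sources used here do not name the promoter that drives the transgene. All samples carried the transgene, and control libraries were not analysed here, so the share of these regions that would be called without the tagged protein was not tested. The lists hold no cell type information and no read counts, so the depth is unknown.

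The signal of a region is the authors' value on an unstated scale and serves here only to order regions within a list. The authors' reproducible list, thresholded by the irreproducible discovery rate, held 767 regions, 746 of them nuclear. These were exactly the 746 nuclear pooled regions of highest signal. The lowest signal in the list was 89.13 and the highest nuclear signal outside it was 89.12, so being in the reproducible list is the same as passing that signal in the pooled list.

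The stretches just upstream of the genes carry much of what follows and are shown first. Each has 110 bases before the annotated 5' end and the first 10 bases of the gene, read in the direction of the gene from the RefSeq genome of WBcel235, which is ce11. The first set holds the snoRNA genes with the highest signal among those whose upstream stretch holds letters like an A box and a B box. The capitals mark the stretches within 1 mismatch of the A box core TGGCNNAGT and the B box core GTTCGANNC. They are W03C9.9 (chrII:11960788-11960907, plus strand), T06C12.16 (chrV:15873917-15874036, minus), T03F7.8 (chrV:11314148-11314267, plus), Y43F8C.22 (chrV:19643178-19643297, minus), F32E10.10 (chrIV:7574012-7574131, plus) and C04G6.12 (chrII:5105222-5105341, minus).
W03C9.9: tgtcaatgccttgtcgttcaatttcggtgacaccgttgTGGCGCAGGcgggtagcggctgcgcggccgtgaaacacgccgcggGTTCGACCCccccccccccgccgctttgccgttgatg
T06C12.16: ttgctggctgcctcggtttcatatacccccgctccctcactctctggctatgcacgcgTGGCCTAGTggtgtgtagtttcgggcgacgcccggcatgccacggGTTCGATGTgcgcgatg
T03F7.8: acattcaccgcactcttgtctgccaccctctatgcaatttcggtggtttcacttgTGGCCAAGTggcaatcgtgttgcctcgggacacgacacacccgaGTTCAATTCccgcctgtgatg
Y43F8C.22: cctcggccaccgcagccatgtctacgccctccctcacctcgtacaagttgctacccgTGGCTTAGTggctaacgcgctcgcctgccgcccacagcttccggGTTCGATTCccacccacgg
F32E10.10: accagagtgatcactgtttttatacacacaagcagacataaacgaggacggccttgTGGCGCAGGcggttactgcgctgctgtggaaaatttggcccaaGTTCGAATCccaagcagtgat
C04G6.12: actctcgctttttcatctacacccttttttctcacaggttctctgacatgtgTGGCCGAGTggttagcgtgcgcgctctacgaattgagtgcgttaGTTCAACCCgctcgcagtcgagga

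The second set holds stretches without that pair of boxes, to show other sequences upstream of genes with a region. They are the snoRNA genes C51F7.4 (chrV:12303489-12303608, plus) and ZK994.7 (chrV:8500469-8500588, plus), which had the highest signals of the 274 regions, and Y67A10A.14 (chrIV:14327112-14327231, minus). The snRNA genes are 1 from each sequence family with a reproducible region, W05B2.8 (chrIII:10989569-10989688, plus), sls-2.2 (chrII:5543488-5543607, plus) and F38E11.10 (chrIV:9444532-9444651, plus). The capitals mark CGNAACCC, letters shared by many snRNA genes, and TATAAA in the snRNA genes. The summits at C51F7.4, W05B2.8, sls-2.2 and Y67A10A.14 lie outside the printed stretches. The 2 regions at Y67A10A.14 had signals of 74.4 and 53.2 and were not reproducible.
C51F7.4: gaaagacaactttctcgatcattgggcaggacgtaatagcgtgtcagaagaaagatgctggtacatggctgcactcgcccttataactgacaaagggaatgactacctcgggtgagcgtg
ZK994.7: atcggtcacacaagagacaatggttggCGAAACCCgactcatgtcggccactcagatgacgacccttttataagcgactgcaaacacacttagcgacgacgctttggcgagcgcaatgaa
Y67A10A.14: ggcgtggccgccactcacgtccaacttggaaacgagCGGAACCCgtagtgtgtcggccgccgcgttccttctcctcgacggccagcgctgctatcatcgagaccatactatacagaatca
W05B2.8: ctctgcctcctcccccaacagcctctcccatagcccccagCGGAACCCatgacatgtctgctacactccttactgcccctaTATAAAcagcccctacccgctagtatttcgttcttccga
sls-2.2: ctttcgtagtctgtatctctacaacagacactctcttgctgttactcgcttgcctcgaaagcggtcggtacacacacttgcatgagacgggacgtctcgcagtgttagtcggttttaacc
F38E11.10: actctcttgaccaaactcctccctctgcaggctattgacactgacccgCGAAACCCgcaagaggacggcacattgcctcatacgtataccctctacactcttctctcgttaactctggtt

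Regions at snoRNA and snRNA genes were among the strongest in the experiment. Of the 274 regions, 68 were in the reproducible list, or 24.8% (95% Wilson interval 20.1 to 30.3), against 2.85% of all nuclear pooled regions. They made up 9 of the 20 nuclear regions of highest signal, 33 of the highest 100 and 68 of the 746 in the reproducible list (9.12%). Their median signal was 49.2, with a range of 25.2 to 712, against a median of 35.0 over all nuclear pooled regions. The other 206 of the 274 regions lay below the reproducible signal.

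Both gene classes exceeded the background share, and their intervals overlapped each other. At snoRNA genes 57 of 213 regions were reproducible, or 26.8% (21.3 to 33.1). At snRNA genes 11 of 61 were, or 18.0% (10.4 to 29.5). Of these 11 regions 10 hold 50-base words that occur more than once in the genome, and among regions without such words the share was 7.14% at snRNA genes (1 of 14) and 29.2% at snoRNA genes (56 of 192). The median signal was 52.4 at snoRNA genes and 44.5 at snRNA genes. With a −log10 q-value of at least 2 as the call, 77 of the 274 regions passed, or 28.1%, against 4.12% of all nuclear pooled regions.

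The replicates ranked the same regions highly. Among the 767 highest-signal regions of replicate 1 there were 65 of the 274 regions (23.7%), against 2.78% of nuclear pooled regions. Among those of replicate 2 there were also 65 (23.7%), against 2.82%. Of the 68 reproducible regions, 56 were in both of these top sets and 1 was in neither. None of the 206 other regions was in both, and a count of 0 allows a share of up to 1.46%. In the whole lists, with summits within 100 bp, replicate 1 held 183 of the 274 regions (66.8%), against 48.4% of all nuclear pooled regions. Replicate 2 held 216 (78.8%), against 61.7%. All 57 snoRNA and all 11 snRNA reproducible regions were found in both lists. Of the regions that were not reproducible, 57 of 156 (36.5%) and 16 of 50 (32.0%) were, against 26.3% of all nuclear pooled regions. The reproducible list was made from these replicates, so this agreement is a description and not a separate check.

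**Figure D1:**
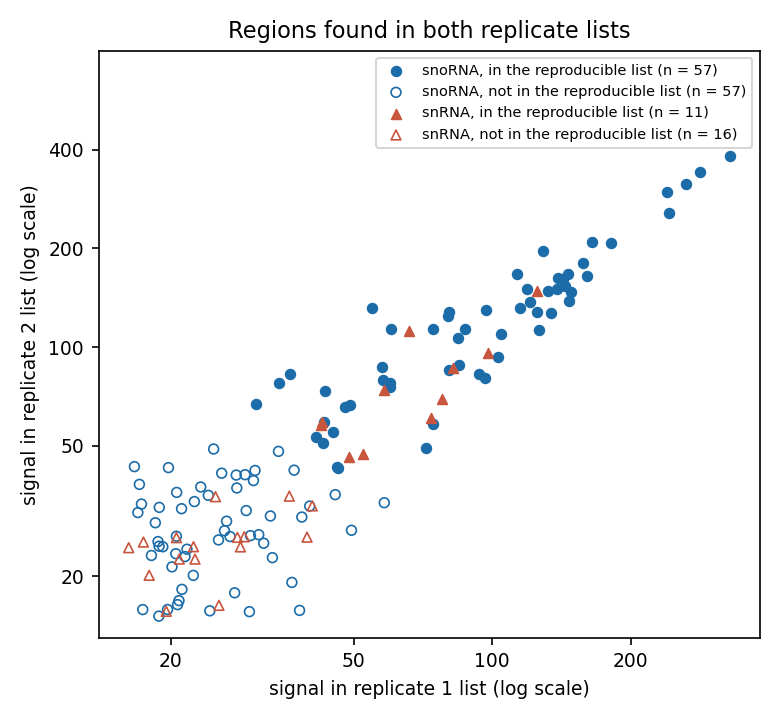
Signal in the list of replicate 1 (x axis, log scale) against signal in the list of replicate 2 (y axis, log scale) for regions found in both lists, with circles for snoRNA and triangles for snRNA genes, filled where the region was in the reproducible list. The filled points, 57 snoRNA and 11 snRNA regions, lie above and to the right of most open points, and the highest is C51F7.4 at 328 in replicate 1 and 383 in replicate 2.

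Strong regions at snoRNA genes had their summits in a narrow stretch just upstream of the gene. Of the 57 reproducible snoRNA regions, 36 had the summit 70 to 20 bp upstream of the 5' end, or 63.2% (50.2 to 74.5). Of the 156 others, 15 did, or 9.62% (5.91 to 15.3). The 156 include second regions at a gene, whose summits lay at least 199 bp from the first. A second summit could thus not share the stretch with a first one, so part of this difference is fixed by the spacing. That stretch holds 5.09% of the positions within 500 bp. Summits lay anywhere upstream in 50 of 57 reproducible regions (87.7%) and in 90 of 156 others (57.7%), and inside the gene in 4 of the 57. The median summit position was 46 bp upstream in the reproducible regions and 35.5 bp upstream in the others, whose quartiles ran from 233 bp upstream to 131 bp downstream. The limits of 70 and 20 bp were chosen after the summits had been seen.

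At snRNA genes the summit was 70 to 20 bp upstream in 2 of 11 reproducible regions (18.2%, 5.14 to 47.7) and in 10 of 50 others (20%, 11.2 to 33). Over all regions the share was 19.7% at snRNA genes (12 of 61) and 23.9% at snoRNA genes (51 of 213). Of the 11 reproducible snRNA regions, 4 had the summit upstream and 5 had it inside the gene, with a median of 18 bp downstream of the 5' end. Of the 50 snRNA regions that were not reproducible, 20 had it upstream and 15 inside the gene.

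**Figure D2:**
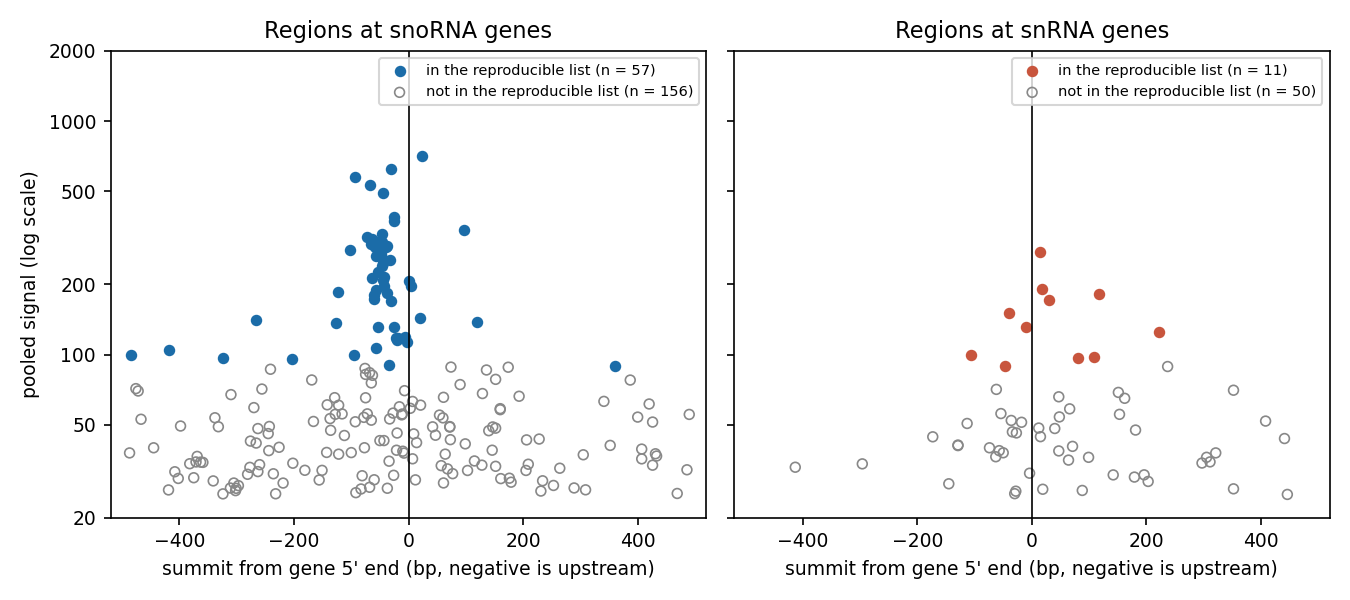
Position of each summit from the gene's 5' end (x axis, bp, negative upstream) against pooled signal (y axis, log scale), with snoRNA regions left and snRNA regions right, filled where the region was in the reproducible list. The 57 filled snoRNA points form a column at 70 to 20 bp upstream that holds 36 of them, while the 156 open points spread over the whole 500 bp on both sides.

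The 10 strongest snoRNA regions each had a different nearest gene. C51F7.4 led with a pooled signal of 712, and with 328 in replicate 1 and 383 in replicate 2. Its 5' end is the last base of a coding exon of frm-7, a FERM-domain gene, and its summit was 23 bp inside the snoRNA. The same summit lay 86 bp upstream of a second snoRNA gene, C51F7.3, in the following intron, so the region cannot be given to 1 of these genes. ZK994.7, in an intron of the peroxidasin gene pxn-1, had a signal of 625 and replicate signals of 282 and 341, with the summit 30 bp upstream.

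The next strongest included intergenic and intronic genes alike. W03C9.9, intergenic, had a signal of 578, with 263 in replicate 1 and 314 in replicate 2, and a summit 93 bp upstream. ZK265.10, intergenic, had 535 (240 and 296 in the replicates) at 67 bp upstream, and T06C12.16, intergenic, had 493 (242 and 255) at 44 bp upstream. T03F7.8, in an intron of the cuticlin-like gene cutl-18 and on the opposite strand to it, had 389 (181 and 208) at 26 bp upstream. Of these 4 genes 3 were intergenic, and all 4 had the summit upstream.

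Y43F8C.22, in an intron of Y43F8C.7 on the same strand, had a signal of 372 (165 in replicate 1 and 209 in replicate 2) at 26 bp upstream. B0334.12, in an intron of the potassium channel gene twk-5, had 340 (158 and 180), with the summit 97 bp downstream of the 5' end and so past the end of this 70 bp gene. F32E10.10, intergenic, had 328 (129 and 196) at 46 bp upstream, and C04G6.12, in an intron of the MAP kinase gene mpk-2 on the opposite strand, had 320 (160 and 165) at 72 bp upstream. All 10 were found in both replicates at rank 53 or better.

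Values next to the limit show how gradual the order is. The 3 lowest reproducible regions were at C16D9.10 (89.9), sls-2.8 (89.7) and K02F3.15 (89.6). The 3 highest regions outside the list were second regions at sls-2.4 (88.9) and ZK994.7 (88.3) and the region at R12E2.17 (88.4). At the distance limit, the regions at D1007.20 (490 bp, signal 55.4) and F17C11.15 (487 bp, 37.9) were just inside, and those at F07A11.15 (509 bp, 54.9) and sls-2.14 (511 bp, 31.4) just outside.

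Letters like the A box and B box of RNA polymerase III genes lay near some of the strong snoRNA regions. Within 50 bp of the summit, on either strand, the A box core TGGCNNAGT was present in 13 of the 57 reproducible snoRNA regions (22.8%) and in 2 of the 156 others (1.28%), against 1.5% of all nuclear pooled regions. The B box core GTTCGANNC was present in 14 of 57 (24.6%) and 1 of 156 (0.641%), against 1.22% of all. Neither core was found within 50 bp of any of the 61 snRNA summits, and a count of 0 allows a share of up to 4.92%.

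A looser search found both boxes together, as in the capitals of the first set above. A pair was counted when each core matched with at most 1 mismatch, on the strand of the gene, with the B box starting 20 to 75 bases after the A box, between 150 bases upstream and 10 bases inside the gene. This definition was chosen after the upstream stretches of the strongest regions and the counts at 0, 1 and 2 mismatches had been seen, so its share among strong regions is a description only. It held for 36 of 346 snoRNA genes, for 0 of 129 snRNA genes (which allows up to 2.33%) and for 67 of 19973 protein-coding gene starts (0.335%). Of the 36 snoRNA genes, 33 had a region (91.7%) and 28 had a reproducible one, or 77.8% (61.9 to 88.3). Of the other 310 snoRNA genes, 30 had a reproducible region, or 9.68%, so 30 of the 58 snoRNA genes with a reproducible region had no pair, those of the 2 strongest regions among them.

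The boxes sat at nearly the same place in most of these genes. The A box started a median of 58 bases upstream of the 5' end and the B box a median of 14 bases upstream. The distance between their starts had a median of 44 bases, with quartiles of 44 and 45, and was 43 to 46 bases in 31 of 36 genes (86.1%). Among the 67 protein-coding starts with a pair it was 43 to 46 bases in 8 (11.9%). The range of 43 to 46 surrounds the quartiles of the snoRNA genes, so these shares do not compare like with like. In tRNA genes, searched inside the gene with the same letters, 464 of 612 held a pair (75.8%), with a median distance of 45 bases and quartiles of 44 and 46. Of the 33 snoRNA genes with a pair and a region, 21 had the strongest summit between the start of the A box and the end of the B box (63.6%).

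**Figure D3:**
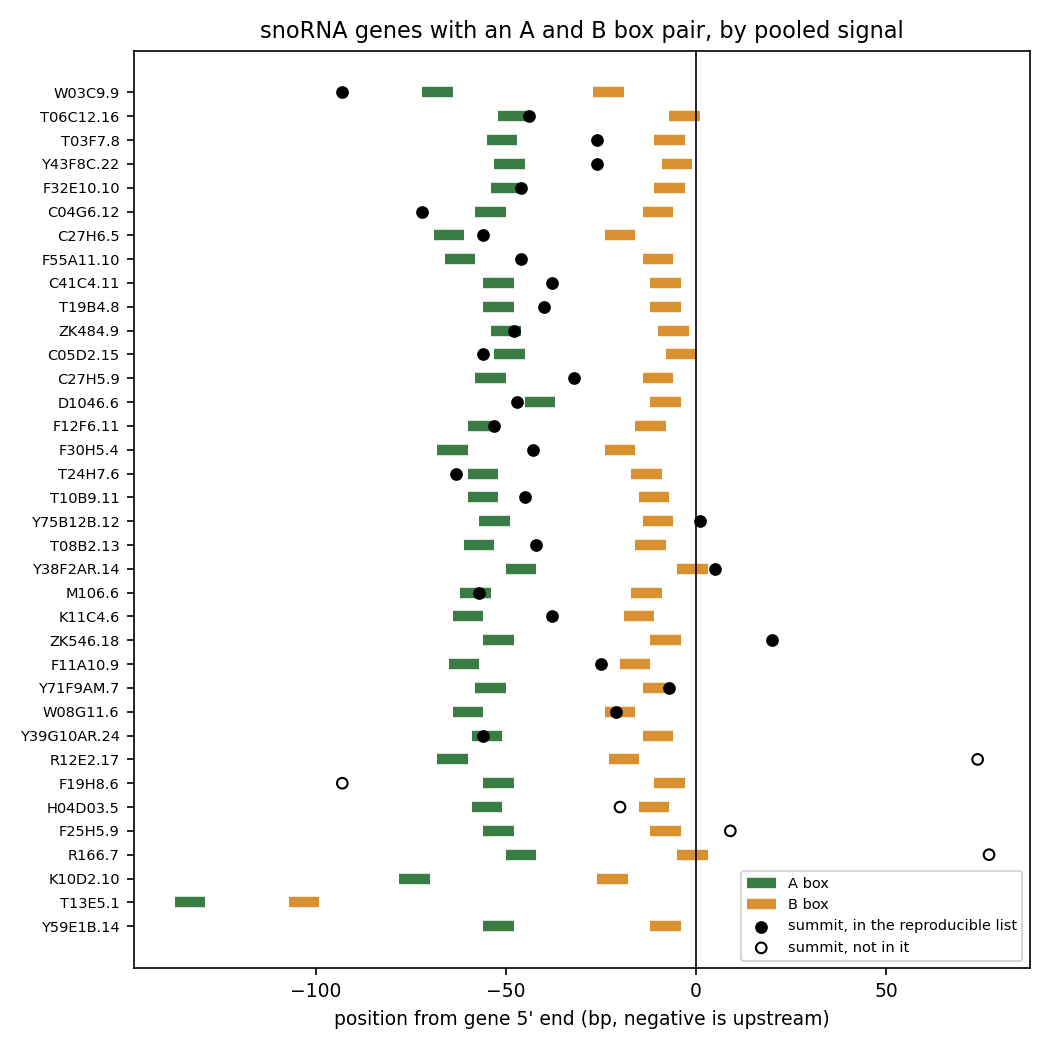
Positions of the A box and B box letters (green and orange bars) and of the strongest summit (dots, filled where in the reproducible list) from the 5' end of each of the 36 snoRNA genes with a pair, ordered by pooled signal, x axis in bp with negative upstream. The A boxes start a median of 58 bp and the B boxes 14 bp upstream, and 28 of the 36 genes have a filled dot.

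Pairs of boxes also occurred in regions away from these genes. Within 80 bp of the summit on either strand, 31 snoRNA regions held a pair and 29 of them were reproducible, or 93.5% (79.3 to 98.2). Away from snoRNA, snRNA and tRNA genes, 391 nuclear pooled regions held a pair and 13 were reproducible, or 3.32% (1.95 to 5.60), close to the 2.85% of all. Over all nuclear pooled regions 2.28% held a pair. The pair was defined from strong snoRNA regions, so these shares do not compare like with like and are given as a description.

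The placement upstream was not limited to the genes with a pair. Of the 29 reproducible regions at snoRNA genes with a pair, 22 had the summit 70 to 20 bp upstream (75.9%, interval 57.9 to 87.8), and of the 28 at genes without one, 14 did (50%, 32.6 to 67.4). Of the 144 regions at genes without a pair that were not reproducible, 14 did (9.72%). These 144 also include second regions, which the spacing of summits keeps out of a stretch that already holds one. The strongest regions without a pair in this stretch were ZK994.7 and ZK265.10. Of the 10 snoRNA genes named above, 6 had a pair.

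The pair counts depended on how strictly the letters were read. With 0 mismatches in either box, 5 snoRNA genes had a pair and 4 of them a reproducible region (80%), against 54 of the other 341 (15.8%). With up to 2 mismatches per box, 155 genes had a pair and 44 a reproducible region (28.4%), against 14 of 191 (7.33%). At that setting 57.1% of all nuclear pooled regions and 25.4% of protein-coding starts also held a pair.

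Letters found upstream of snRNA genes also lay upstream of some snoRNA genes. The word found upstream of the largest number of snRNA sequence families, 8 of 26, was GCGAAACC. It was present in the 100 bases upstream of 15 snRNA genes, 5 snoRNA genes and 0.0751% of protein-coding starts. A wider form, CGNAACCC, was chosen after these words had been seen, and was found on the strand of the gene upstream of 46 of 129 snRNA genes (35.7%), 27 of 346 snoRNA genes (7.80%) and 0.220% of protein-coding starts. It started a median of 61 bases upstream in snRNA genes and 62 bases upstream in snoRNA genes. Of 346 snoRNA genes, 0 had both CGNAACCC and the pair of boxes, which allows up to 0.867%. The pair was at 36 and CGNAACCC at 27 of these genes, so few would hold both even if they were unrelated. The 0 is therefore not read as the letters excluding each other. Of the 27 snoRNA genes with CGNAACCC, 15 had a region (55.6%) and 2 a reproducible one, or 7.41% (2.06 to 23.4), ZK994.7 and F59C6.15. Of the 283 snoRNA genes with neither, 28 had a reproducible region, or 9.89% (6.93 to 13.9).

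**Figure D4:**
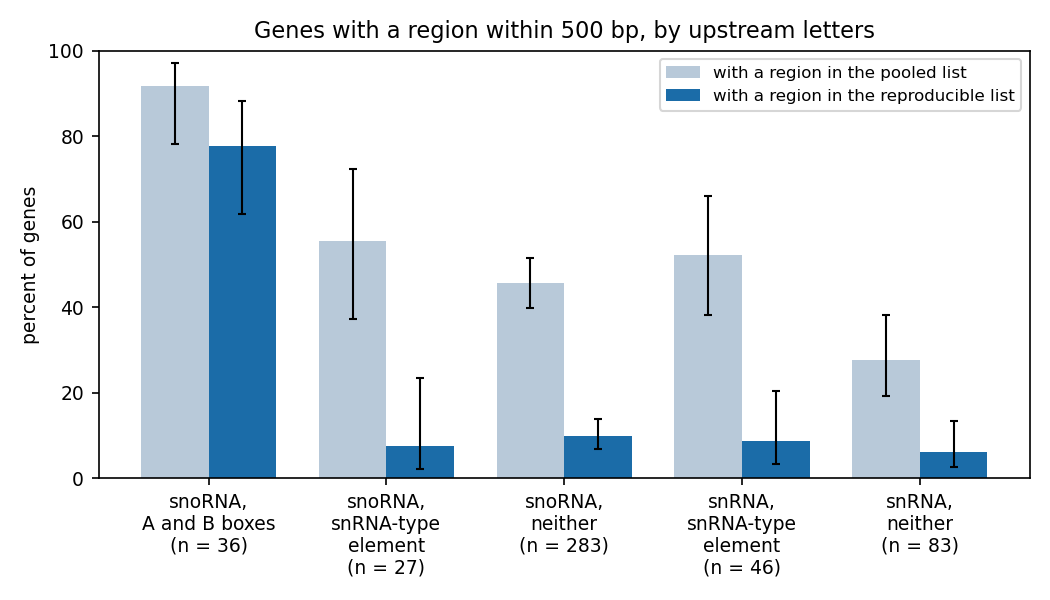
Percent of genes with a region in the pooled list (pale bars) and in the reproducible list (dark bars), for snoRNA and snRNA genes grouped by the letters upstream (A and B boxes, CGNAACCC as the snRNA-type element, or neither), with 95% Wilson intervals as error bars. The 36 snoRNA genes with A and B boxes reach 77.8% in the reproducible list, and the 4 other groups lie between 6.02% and 9.89%.

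Among the other letters searched, the forkhead and GAGA letters were close to the level of all regions within 50 bp. The forkhead letters GTAAACA were within 50 bp of 1 of 57 reproducible snoRNA summits (1.75%) and 3 of 156 others (1.92%), against 1.03% of all nuclear pooled regions, and of 0 of 11 reproducible snRNA summits, which allows up to 27.3%. TGATGA, the C box inside many snoRNAs, was within 50 bp of 2 of the 57 (3.51%) and 24 of the 156 (15.4%), against 7.80% of all. Within 100 bp it was near 11 of the 57 (19.3%) and 46 of the 156 (29.5%), against 15.2% of all, so whether the reproducible summits lay below or above all regions turned with the window. TATAAA was within 50 bp of 6 of the 57 snoRNA summits (10.5%) and 5 of the 156 (3.21%), against 7.51% of all. At snRNA genes it was near 2 of the 11 reproducible summits (18.2%) and 7 of the 50 others (14.0%). GAGAGA was near 6 of the 57 (10.5%), against 10.8% of all, and GGGCGG near 4 of the 57 (7.02%), against 4.09% of all. A match is a run of letters and no evidence of binding.

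Both intronic and intergenic snoRNA genes had reproducible regions. Here intronic means wholly inside an intron of a protein-coding gene. Of the regions at intronic snoRNA genes, 26 of 103 were reproducible, or 25.2% (17.8 to 34.4). At intergenic ones 25 of 85 were, or 29.4% (20.8 to 39.8), and at those that overlap a coding-gene exon 6 of 25 were, or 24.0% (11.5 to 43.4). Of all intronic snoRNA genes, 28 of 172 had a reproducible region (16.3%), and of all intergenic ones 24 of 124 (19.4%). Among genes with the pair of boxes, 18 of 23 intronic (78.3%) and 10 of 13 intergenic genes (76.9%) had a reproducible region. Among genes with neither the pair nor CGNAACCC, 9 of 137 intronic (6.57%, 3.49 to 12.0) and 13 of 98 intergenic genes (13.3%, 7.92 to 21.4) did. Intronic genes on the host's strand had 20 of 88 regions in the reproducible list (22.7%, 15.2 to 32.5), and those on the opposite strand 6 of 15 (40.0%, 19.8 to 64.3). The intervals overlap in each comparison for which they are given. Over snoRNA and snRNA genes together, 23.3% of intronic and 27.1% of intergenic regions were reproducible. In the list of replicate 1 alone, 31.4% and 27% were among that replicate's highest-signal regions. The call and the regions counted both differ there, so the change in order is not a comparison of like with like.

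The host genes were varied. Introns of 188 protein-coding genes held a snoRNA or snRNA gene, 99 of them at least 1 with a region and 30 at least 1 with a reproducible region. Only pdl-1, which encodes a phosphodiesterase delta-like protein, had reproducible regions at 2 such genes, C27H5.9 and C27H5.10, and both came from the same region, with a signal of 254 and its summit 32 bp upstream of C27H5.9. Hosts with 2 small genes near a region and none reproducible were glr-2, a glutamate receptor gene, unc-31, rps-27A, eef-1G and C15F1.5. Ribosomal protein genes, common snoRNA hosts, numbered 15 with 23 small genes. Of these hosts 8 had a region, and only rpl-24 had a reproducible one, at D1007.20, with a signal of 105 and its summit 418 bp upstream. That summit was nearer to a protein-coding start, at 284 bp, so the region cannot be given to the snoRNA gene alone.

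Closeness to protein-coding starts did not set these regions apart. A protein-coding gene started within 500 bp of 66 of the 274 summits, or 24.1%, against 23.9% of all nuclear pooled regions. Of those 66, 15 were reproducible (22.7%, 14.3 to 34.2), and of the other 208, 53 were (25.5%, 20 to 31.8).

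A reproducible region lay within 500 bp of 9 of 129 snRNA genes, or 6.98% (3.71 to 12.7), against 2.09% of protein-coding genes. The 129 nuclear snRNA genes formed 26 families when genes were joined at an edit distance of up to 25% of the longer gene. Regions were found in 12 families and reproducible ones in 3. These 3 families hold 55 of the 129 genes, and 15 of the 26 families are single genes, so the count of families is not read as a concentration. The files do not say which spliceosomal RNA most of these genes encode, so a family is named here by its first gene.

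The family of C28A5.7 has 24 genes of 93 to 108 bases. It had a region at 7 genes and a reproducible one at 4, W05B2.8, F54D8.7, C28A5.7 and R07E5.16. W05B2.8 (WBGene00014543), in an intron of the dynein heavy chain gene dhc-4, had the strongest snRNA region, with a signal of 275 (125 in replicate 1 and 148 in replicate 2) and its summit 15 bp inside the gene. A second reproducible region, with a signal of 125, lay 222 bp downstream of its 5' end. F54D8.7 had 171 (82.0 and 86.6) at 30 bp downstream, and C28A5.7, in an intron of C28A5.6, had 132 (58.3 and 73.8) at 10 bp upstream. R07E5.16, in an intron of the mitochondrial pyruvate carrier gene mpc-1, had 97.1 (42.7 and 59.1). All 4 genes are on chromosome III.

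The sls-2 genes, which make the SL2 spliced leader RNA, fall in a family of 19 genes that also holds ZK1251.14. Regions lay at 8 and reproducible ones at 4. The signal was 191 at sls-2.4 (98.0 in replicate 1 and 96.0 in replicate 2), 181 at sls-2.2 (65.8 and 112), 150 at sls-2.1 (77.9 and 69.3) and 89.7 at sls-2.8 (42.5 and 58). Their summits lay 18 bp and 117 bp downstream and 40 bp and 47 bp upstream of the 5' end. The third family, that of C53B4.9 with 12 genes, had regions at 8 genes and reproducible ones at F38E11.10 (WBGene00014366) only, with signals of 99.2 and 97.4 at 106 bp upstream and 108 bp downstream.

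Other large families had regions but none in the reproducible list. The family of C47F8.9, with 19 genes, had regions at 8, the highest at 54.1. The family of sup-6, with 13 genes, had regions at 9, the highest at 70.4. The sls-1 genes, which make the SL1 spliced leader RNA, had no region at any of 12 genes. A count of 0 allows a share of up to 25% if the genes are treated as separate. Their sequences were identical within the family of sls-1.10 and within that of sls-1.1, so they are not separate cases.

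**Figure D5:**
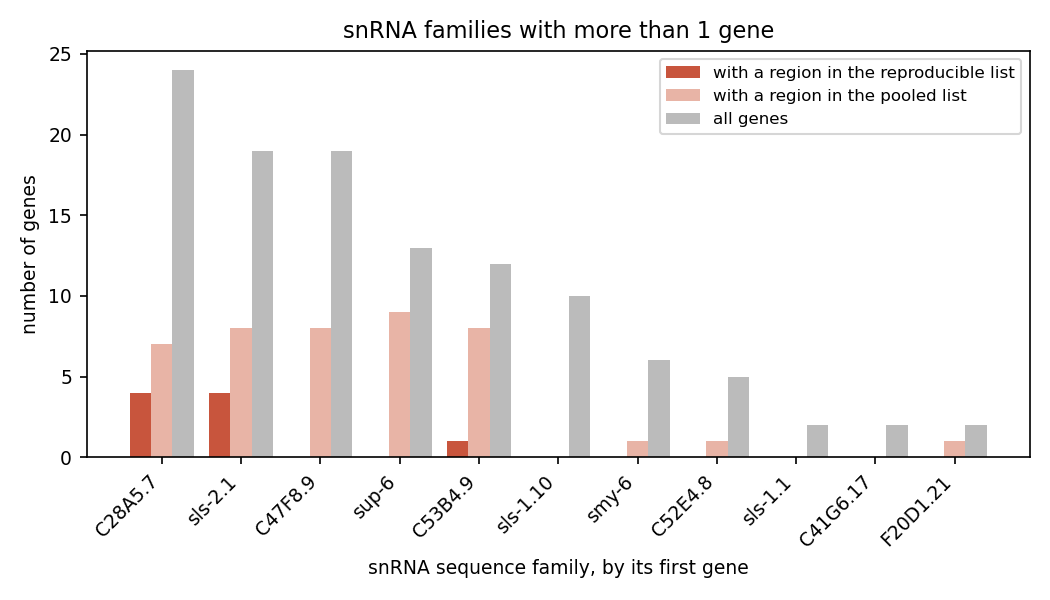
Number of genes (y axis) in each snRNA sequence family with more than 1 gene, named by its first gene on the x axis, with genes that have a reproducible region, genes that have a pooled region, and all genes. Reproducible regions occur in the families of C28A5.7 (4 of 24 genes), sls-2.1 (4 of 19) and C53B4.9 (1 of 12).

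Repeated sequence around the 5' end differed between snRNA families, with no single direction between genes with and without a region. Around the 5' ends of the sls-1 genes the share of 50-base words that occur more than once in the genome was 100% at 11 genes and 83.5% at sls-1.12. In the family of C28A5.7 the median share of repeated words was 17% at genes with a region and 30.1% at genes without one, in that of C47F8.9 it was 35.7% and 49.3%, and in that of sup-6 it was 18.7% and 57.2%. It was higher at genes with a region in the families of sls-2.1, at 10.3% and 5.1%, and C53B4.9, at 14.2% and 6.19%. The smaller families had 1 gene with a region each, and were also split, with a higher share at it in those of C52E4.8 and smy-6 and a lower one in that of F20D1.21. The sources used here do not say how reads that match several places were treated, and the part of repeats in these counts was not tested. The 1 reproducible snRNA region without any repeated 50-base word was that at sls-2.8.

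Genes for the proteins that work with these RNAs were looked at in the same way. The list held 37 genes for snoRNP proteins, Sm and LSm proteins, proteins of U1 and of snRNP assembly, and factors that transcribe snRNA and RNA polymerase III genes, of which 35 matched the annotation. A pooled region lay within 500 bp of the start of 16 of the 35, or 45.7% (30.5 to 61.8), against 29.6% of 19973 protein-coding genes. A reproducible one lay near 2 of the 35, or 5.71% (1.58 to 18.6), against 2.09%. These were fib-1, the fibrillarin gene whose product methylates ribosomal RNA, with a signal of 146 at 153 bp, and snr-1, a Sm protein gene, with 112 at 429 bp. By group, a pooled region lay near 4 of 8 snoRNP genes, 5 of 7 Sm genes, 3 of 7 LSm genes, 1 of 4 genes for U1 and assembly and 3 of 9 transcription genes.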

How the data were processed

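FKH-6-GFP chromatin was sequenced from 2 replicates of whole late embryos, and the authors deposited region lists per replicate, for the pooled replicates and for the reproducible set. Per the layout of the deposited lists, each region has a signal, a −log10 q-value and a summit. The sources used here do not give the aligner, peak caller, versions or thresholds. The lists in ce10 coordinates were not used here. The lowest deposited −log10 q-value was 0.01779, so the pooled list includes weak regions. Gene positions came from the Ensembl 115 annotation of WBcel235, and names and sequences from RefSeq, with 475 of 475 genes matched by gene identifier. Members, gene lists, windows and motif forms were chosen with earlier results of these data known. By rule, the text names the 10 strongest snoRNA regions, the 8 strongest and all reproducible snRNA regions, the regions on both sides of each limit, their host genes, hosts of several such genes, and snRNA families. F59C6.15, rpl-24, the weaker genes with a pair of boxes and the genes with 2 reproducible regions were added after their values were seen.

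Summits in different lists were matched within 100 bp, in a list of 19624 regions for replicate 1 and 26209 for replicate 2. Shares carry 95% Wilson intervals from SciPy 1.17.1 under Python 3.11.15, and a count of 0 is given the limit of 3 counts. Intervals treat regions as separate and cover counting error only, and no test was run, since there was 1 group. Sequence families used edlib 1.3.9.post1. The matching and motif searches were tested on simulated data. Alternatives covered the distance limit, the q-value, the matching distance, single replicates, repeated words, 1 region per gene, the motif window and motif mismatches.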

Additional observations from a re-analysis of the deposited data

How the results depend on the processing

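No paired analysis was possible because there was 1 group. The order of intronic and intergenic genes differed between lists. The reproducible share was 23.3% at intronic and 27.1% at intergenic genes with the pooled list. In the list of replicate 1 alone the values were 31.4% (32 of 102) and 27% (27 of 100). A single replicate has no reproducible list, so its highest-signal regions were the call, and both the call and the regions counted differ. The cause of the moves below was not tested except where the setting itself fixes it. The reproducible share of 24.8% became 32.8% within 200 bp, 18.2% within 1000 bp, 34.5% in or within 100 bp of the gene and 88.3% with a −log10 q-value of at least 2, which selects on signal. At snoRNA genes (26.8%) these were 36.7%, 18.8%, 39.0% and 87.7%. At snRNA genes (18.0%) it was 91.7% with the q-value limit and 7.14% without repeated words. At intronic genes (23.3%) it was 88.2% with the q-value limit and 33.8% in or near the gene, and at intergenic genes (27.1%) 88.9% and 36.0%. Over all nuclear pooled regions 1077 passed the q-value limit and 746 were reproducible. The shares with that limit are therefore not to be set against the 2.85% of all nuclear pooled regions.

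The share of snoRNA genes with a region (51.2%) was 35.0% within 200 bp, 67.3% within 1000 bp, 18.5% with the q-value limit, 31.8% in or near the gene and 39.9% away from protein-coding starts. For snRNA genes (36.4%) it was 47.3% within 1000 bp, 6.98% with the q-value limit, 27.1% in or near the gene and 10.1% without repeated words. The median summit distance of 107 bp was 62.5 within 200 bp, 253 within 1000 bp, 56 with the q-value limit, 57.0 in or near the gene, 75 with the strongest region per gene and 124 without repeated words. In the same order the median signal percentile of 80.5 was 87.1, 74.7, 99.5, 87.4, 85.3 and 83.3. Matching within 50 bp and 200 bp gave 60.2% and 73.0% found in replicate 1 and 69.7% and 86.5% in replicate 2. The reproducible share with a box pair was 28.4% with 2 mismatches, and without a pair it was 15.8% with 0 mismatches.

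Widening the motif window to 100 bp moved the C box share at snoRNA regions to 26.8%, against 12.2% within 50 bp. At snoRNA regions TATAAA went from 5.16% to 14.6%, GAGAGA from 12.2% to 23.9% and CGNAACCC from 2.82% to 7.98%. At snRNA regions GGGCGG went from 4.92% to 14.8% and CGNAACCC from 11.5% to 26.2%. Over all nuclear pooled regions the share also rose for each of these letters, for the C box from 7.80% to 15.2%. With the list of a single replicate in place of the pooled one, that replicate's highest-signal regions took the place of the reproducible list. The lowest and highest values were then 22.1% and 29% for all regions, 24.0% and 30.9% at snoRNA genes and 14.8% and 20% at snRNA genes. They were 20.9% and 31.4% at intronic genes and 23.0% and 27% at intergenic genes. They were 46% and 52.0% of snoRNA genes and 31.0% and 38% of snRNA genes with a region, 106 and 120 bp for the distance, 74.1 and 74.6 for the percentile, 77.8% with a pair and 8.71% and 9.03% without one. Depth is unknown, so it could not be said which genes without a region were too shallowly covered.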

Other observations

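None of the regions at these genes on the X chromosome reached the reproducible signal. Of the 274 regions 15 lay on X and 0 of them were reproducible (a count of 0 allows up to 20%). Their median signal was 35.0 and the highest was 65.6, at the 92.4 percentile of nuclear pooled regions. Of 33 snoRNA genes on X, 12 had a region and 0 a reproducible one, which allows up to 9.09%, and 1 carried the pair of boxes. Over all nuclear pooled regions on X, 180 of 4484 were reproducible, or 4.01%.

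Some genes had more than 1 region. At 57 genes there were 2 regions, with a median gap of 210 bp between summits and a range of 199 to 908 bp. Both were reproducible at W03C9.9, W05B2.8 and F38E11.10.

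A few genes with the pair of boxes lacked a strong region. The regions at R12E2.17 (88.4), F19H8.6 (51.6), H04D03.5 (46.2), F25H5.9 (45.8) and R166.7 (30.9) were not reproducible, and no region was found at K10D2.10, T13E5.1 and Y59E1B.14.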
